A study of Mus musculus with 2 samples.

Results

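The genes described here encode voltage-gated calcium channel subunits. They were chosen by gene symbol, with the gene identifier of the files matched without its version to GENCODE mouse names, and number 10 of the 43346 annotated genes in the files. There are 4 pore genes, the L-type Cacna1c and Cacna1d and the T-type Cacna1g and Cacna1h, and 6 auxiliary genes, the β subunit genes Cacnb1, Cacnb2 and Cacnb3 and the α2δ subunit genes Cacna2d1, Cacna2d2 and Cacna2d3. All 10 genes and their 93 transcripts were found in the files.

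The tissue was whole heart of healthy B6NCrl mouse embryos (a C57BL/6N substrain) at embryonic day 13.5, with male and female embryos pooled. Total RNA above 200 nt was sequenced from 10 ng of input in 2 libraries, replicates 1 and 2 of 1 group. The labels number them as biological replicates, as separate tissue entries under the same donor entry, so their spread is that between 2 pools. There is no treated, mutant or other-stage group, and no test between groups can be made.

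A voltage-gated calcium channel opens when the membrane depolarizes and lets calcium into the cell. Its α1 subunit forms the pore and carries the voltage sensors. L-type channels open at stronger depolarization and supply the calcium that triggers contraction of heart muscle, while T-type channels open near the resting potential and are known from pacemaker cells and from embryonic myocardium. High-voltage channels, the L-type among them, bind a cytoplasmic β subunit and an extracellular α2δ subunit, which raise the number of channels at the surface and shift their gating.

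The libraries held 34545778 estimated reads on annotated genes in replicate 1 and 35137136 in replicate 2. Levels are in TPM, a measure of transcript abundance relative to all others that corrects for length and depth, and 1 TPM stood for 29.3 and 27.4 reads in a 1 kb transcript. Spike-in RNA took 11.1% of all TPM in replicate 1 and 5.04% in replicate 2, and the median log2 TPM ratio of all tested genes, replicate 1 over replicate 2, was −0.15. Heart muscle markers were abundant: 6 of 6 cardiomyocyte genes reached 1 TPM, with mean TPM between 8.47 (Ryr2) and 4699 (Tnnt2). Endothelial markers reached 1 TPM in 6 of 6 genes, smooth muscle markers in 5 of 6, neuron markers in 2 of 6 and skeletal muscle markers in 2 of 6. Hepatocyte markers summed to 40.9 TPM in replicate 1 and 278 TPM in replicate 2, and erythroid markers to 36757 and 22285 TPM. In whole tissue, fewer cells of a type and less RNA per cell cannot be told apart.

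Of the 10 members, 9 reached 1 TPM in both libraries, where 57.3% of 21474 protein-coding genes did. Cacna2d3 was the exception. The median of the mean TPM of all 10 members was 5.47. The median of all protein-coding genes was 3.07 TPM, and that of the detected ones alone 15.1 TPM. The members together summed to 72.6 TPM in replicate 1 and 79.2 TPM in replicate 2. In the order of mean TPM, Cacna1c stood first, followed by Cacna2d1, Cacnb2, Cacnb3, Cacna1h, Cacnb1, Cacna1g, Cacna2d2, Cacna1d and Cacna2d3. Only 3 of the 9 neighbouring pairs in this order had deposited credibility intervals that did not overlap in either library. These were Cacna1c over Cacna2d1, Cacna2d2 over Cacna1d, and Cacna1d over Cacna2d3. Between them lay 7 genes, Cacna2d1 to Cacna2d2, in which no neighbour was set apart from the next. Of all 45 pairs of members, 32 were set apart in both libraries by the same criterion. The interval covers the uncertainty of assigning reads to features, not the variation between embryos.

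**Figure D1:**
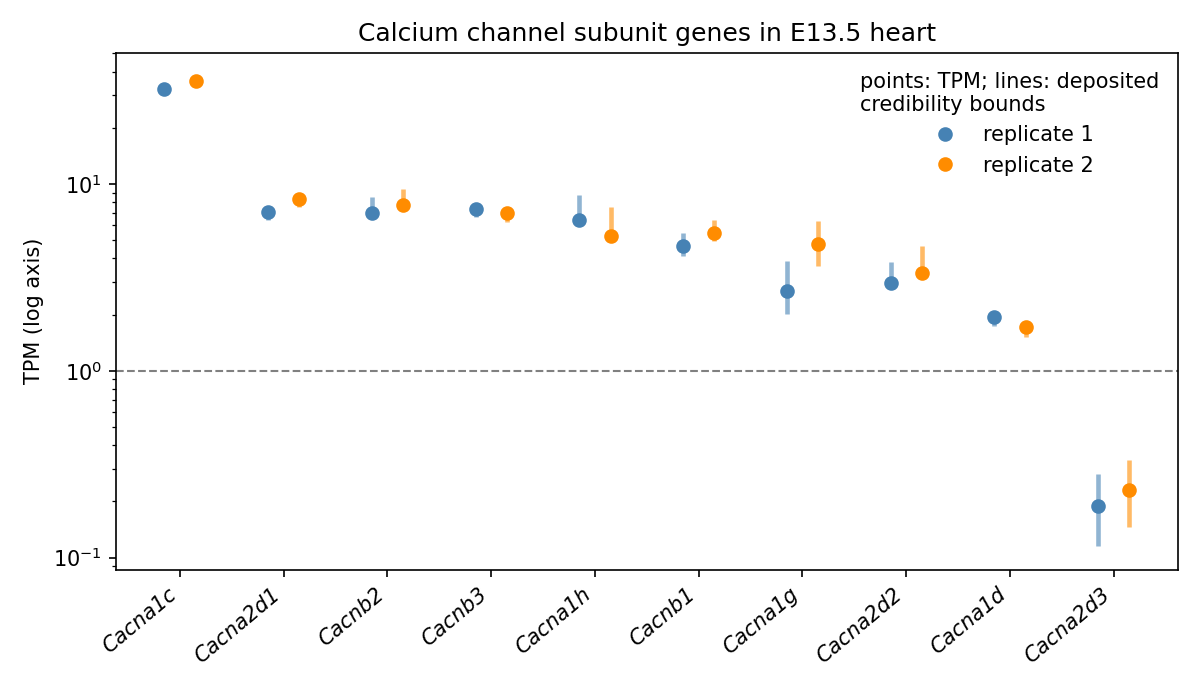
TPM (log axis) of the 10 genes in replicate 1 (left point of each pair) and replicate 2 (right point), ordered by mean TPM, with lines for the deposited credibility bounds of each library and a dashed line at 1 TPM. Cacna1c lies above 30 TPM, Cacna2d3 below 1 TPM, and the other 8 genes between 1.71 and 8.28 TPM.

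The L-type pore gene Cacna1c (ENSMUSG00000051331.10, chr6:118587240-119196418, minus strand, GRCm38) encodes Cav1.2, the main calcium channel of working heart muscle. It had 32.4 TPM in replicate 1 and 35.4 TPM in replicate 2, with bounds of 30.1 to 34.4 and 33.0 to 37.6 TPM. The mean was 33.9 ± 2.1 TPM (SD, n = 2), from 2642 and 2640 reads. It was the highest of the 10 members in both libraries, 4.43 times Cacna2d1 on the TPM scale with all models counted.

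Most of this TPM was assigned to a short model that is not annotated as coding. Cacna1c-218, a processed transcript of 954 nt with 4 exons, held 77.6% of the gene's TPM in replicate 1 and 80.5% in replicate 2. It is a small part of the reads: 631 and 667 of them, or 23.9% and 25.3% of the gene's reads. The full-length coding model Cacna1c-207 (13162 nt, 47 exons) held 60.3% and 61.1% of the reads but 12.8% and 12.7% of the TPM, since TPM divides reads by length. In TPM, Cacna1c-218 stood at 25.2 and 28.5 and Cacna1c-207 at 4.17 and 4.51. All 18 protein-coding models together came to 5.47 and 5.83 TPM, or 5.65 ± 0.25 TPM (SD, n = 2). By coding models Cacna1c was not the highest member: Cacna2d1 had 7.04 and 8.27 TPM, 1.35-fold above it (log2 0.43 ± 0.10), and Cacnb3 had 7.33 and 6.99 TPM. Of these 18 models, 12 were at 0 TPM in both libraries. The next coding model after Cacna1c-207, Cacna1c-216 (7338 nt), had 0.63 and 0.51 TPM.

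**Figure D2:**
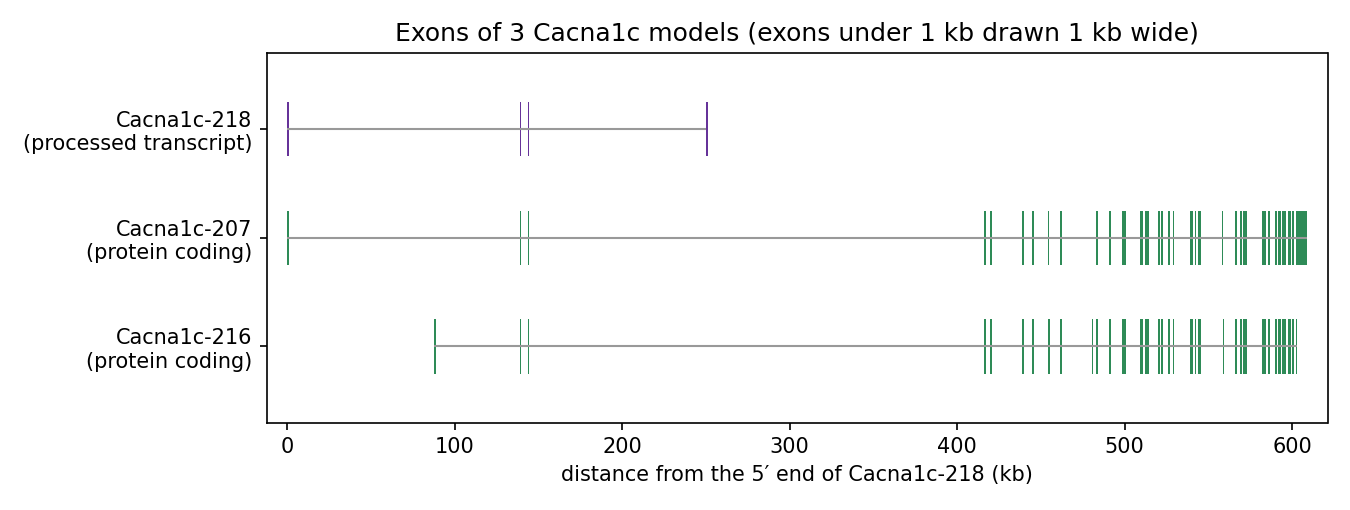
Exons of the 3 Cacna1c models Cacna1c-218, Cacna1c-207 and Cacna1c-216 by distance in kb from the 5′ end of Cacna1c-218, with introns as thin lines. Cacna1c-218 has its exons 2 and 3 at the same places as Cacna1c-207, a first exon with the same end, and a last exon of its own that ends 250.2 kb from its start, within the long intron that follows.

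Cacna1c-218 shares the splice donor of the distal first exon and the next 2 exons with Cacna1c-207. It then ends in an exon of 209 nt of its own (chr6:118946163-118946371), inside the intron that Cacna1c-207 splices out. The first exons also differ, at 317 nt in Cacna1c-218 and 139 nt in Cacna1c-207, which begins at its start codon. Reads upstream of that codon therefore fit Cacna1c-218 but not Cacna1c-207, and they were not counted separately here. The coding models Cacna1c-210 and Cacna1c-212 also reach upstream of it. Both exon 3 to exon 4 junctions are shown because the 2 models part there, with 30 bases on each side and the first bases of exon 4 in capitals. Exon 3 ends at chr6:119052601-119052630, and exon 4 begins at chr6:118946342-118946371 in Cacna1c-218 and at chr6:118780295-118780324 in Cacna1c-207, all on the minus strand of GRCm38 (GENCODE M21 transcript sequences).
Cacna1c-218 exon 3 to 4 junction: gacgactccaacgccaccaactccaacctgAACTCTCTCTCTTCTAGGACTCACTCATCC
Cacna1c-207 exon 3 to 4 junction: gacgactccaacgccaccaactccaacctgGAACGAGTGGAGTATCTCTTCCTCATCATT
The final 30 bases of Cacna1c-218 (chr6:118946163-118946192, minus strand) are given with AATAAA, the common polyadenylation signal, in capitals.
Cacna1c-218 last bases: acttgtttgtAATAAAgctttattctgggt
The signal starts 20 nt before the annotated end. The same 6 letters, searched on the transcript strand only, occur in the last 40 nt of 25.8% of 141704 GENCODE M21 transcripts. Reads in the shared exons were divided between the models by the authors' estimate, and reads across the junctions are not analysed here.

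Among the coding models of Cacna1c, the TPM shares of models grouped by first exon or by a pair of alternative exons were similar in both libraries. Models that begin with the distal first coding exon (139 nt, chr6:119196093-119196231), which is known from human and rabbit as the start of the cardiac form, held 79.2% and 83.4% of the gene's coding TPM. Models with the proximal first coding exon (49 nt, chr6:119107927-119107975), known from smooth muscle and brain, held 13.7% and 10.1%. The remaining coding models begin farther downstream. These are shares of whole models, and the first exons were not counted by their own reads. Of the TPM with the distal exon, 4.33 and 4.86, Cacna1c-207 alone gave 4.17 and 4.51. Its last exon is 6955 nt, against 548 nt in Cacna1c-216. The 2 first coding exons are shown to their ends, on the minus strand of GRCm38 from GENCODE M21, with the start codon in capitals, since they give the channel different N-termini.
Cacna1c distal first coding exon: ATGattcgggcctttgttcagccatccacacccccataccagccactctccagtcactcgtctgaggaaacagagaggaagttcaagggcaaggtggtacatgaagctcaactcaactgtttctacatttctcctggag
Cacna1c proximal first coding exon: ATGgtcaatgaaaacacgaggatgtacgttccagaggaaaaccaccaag

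The second L-type gene, Cacna1d (ENSMUSG00000015968.12, chr14:30039939-30491455, minus strand), encodes Cav1.3, which opens at more negative potentials and takes part in pacemaking of the sinoatrial node. It had 1.94 TPM in replicate 1 and 1.71 TPM in replicate 2, with bounds of 1.74 to 2.08 and 1.52 to 1.84 TPM, from 489 and 403 reads. Both of its listed transcripts are coding, and Cacna1d-202 led with 94.7% and 92.2%. Cacna1c exceeded Cacna1d by 18.6-fold when all models were counted (log2 4.22 ± 0.22, SD, n = 2). With coding models alone the difference was 3.11-fold (log2 1.64 ± 0.20), with Cacna1c still the higher in both libraries. Cacna1d shares 589 exon bases with Chdh on the opposite strand, and its counts are not whole, so reads were divided between features.

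Cacna1c and Cacna1d each carry a pair of mutually exclusive 104 nt exons, which encode the last transmembrane segment of the first repeat of the pore. The leading coding models made opposite choices. Cacna1c-207 holds the upstream exon of its pair, and models with that exon made up 79.2% and 83.4% of the coding TPM. Those with the downstream exon made up 20.8% and 16.6%. In Cacna1d, the downstream exon belongs to Cacna1d-202 and held 94.8% and 92.4% of coding TPM, against 5.15% and 7.65% for the upstream exon. These shares are of whole models: in each gene the leading model also differs from others elsewhere, so the exon was not counted by its own reads. The 4 exons are shown so that the pairs can be compared, on the minus strand of GRCm38 from GENCODE M21, with capitals for positions that differ within a pair. They lie at chr6:118742265-118742368 and chr6:118741871-118741974 for Cacna1c, and at chr14:30171956-30172059 and chr14:30171296-30171399 for Cacna1d.
exon Cacna1c upstream: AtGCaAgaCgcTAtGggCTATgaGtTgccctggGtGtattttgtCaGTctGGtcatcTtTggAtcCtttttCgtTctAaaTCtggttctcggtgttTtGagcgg
exon Cacna1c downstream: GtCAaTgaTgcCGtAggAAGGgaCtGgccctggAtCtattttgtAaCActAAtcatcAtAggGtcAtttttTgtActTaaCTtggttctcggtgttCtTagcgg
exon Cacna1d upstream: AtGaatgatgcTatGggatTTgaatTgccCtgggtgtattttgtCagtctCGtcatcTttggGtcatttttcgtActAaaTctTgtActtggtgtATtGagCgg
exon Cacna1d downstream: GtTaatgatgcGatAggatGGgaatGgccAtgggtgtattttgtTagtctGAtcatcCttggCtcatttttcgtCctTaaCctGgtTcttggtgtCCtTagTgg
Without gaps, the exons of the Cacna1c pair are identical at 72 of 104 positions and those of the Cacna1d pair at 82. The upstream exons of the 2 genes match each other at 90 positions and the downstream exons at 83, more than either matches its own partner.

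The T-type pore genes were both above 1 TPM. Cacna1h (ENSMUSG00000024112.12, chr17:25374285-25433783, minus strand), which encodes Cav3.2, had 6.43 TPM in replicate 1 and 5.30 TPM in replicate 2, from 936 and 923 reads. Its bounds were 5.95 to 8.72 and 5.303 to 7.52 TPM, so the value of replicate 2 lay just below its own lower bound. The posterior means were higher, at 7.26 and 6.39 TPM. Its coding model Cacna1h-205 (8230 nt) led with 56.6% and 74.8% of TPM and 92.4% and 95.6% of reads. The libraries differed mostly in short models: Cacna1h-204, a retained intron of 412 nt, held 18.2% of TPM in replicate 1 from 10.7 estimated reads and was listed at 0 in replicate 2. Coding models of Cacna1h came to 4.25 and 4.52 TPM. The gene shares 158 exon bases with Tpsg1 on the opposite strand, and its count in replicate 1 is not whole.

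Cacna1g (ENSMUSG00000020866.13, chr11:94408391-94474198, minus strand), which encodes Cav3.1, had 2.66 TPM in replicate 1 and 4.77 TPM in replicate 2, with bounds of 2.02 to 3.88 and 3.62 to 6.31 TPM. The reads did not show this difference, at 262 and 273. Most of it lay in Cacna1g-213, a processed transcript of 434 nt that held 23.4% of TPM from 6.11 estimated reads in replicate 1 and 49.1% from 21.5 estimated reads in replicate 2. Summed over coding models, Cacna1g had 1.02 and 1.04 TPM. No coding model led in both libraries: Cacna1g-210 held 37.5% of the gene's reads in replicate 1 and none in replicate 2, while Cacna1g-205 held 9.13% and 59.5%. Cacna1h exceeded Cacna1g by 1.64-fold over all models (log2 0.71 ± 0.79, SD, n = 2), a difference smaller than its SD. Over coding models it was higher by 4.26-fold (log2 2.09 ± 0.04).

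Across the 10 α1 genes of the family, Cacna1c and Cacna1d took 69.3% ± 1.7 of the summed TPM and the T-type genes 18.6% ± 0.1 (SD, n = 2). The shares of coding TPM were 55.6% ± 0.9 and 40.3% ± 0.4. Cacna1c alone took 65.7% ± 1.1 over all models and 42.0% ± 0.7 over coding models, and Cacna1h 11.5% ± 2.4 and 32.6% ± 0.5. Over coding models Cacna1c and Cacna1h were 1.29-fold apart (log2 0.37 ± 0.002), against 5.80-fold over all models (log2 2.54 ± 0.29). With all reads of each gene placed on its longest coding model, the share of Cacna1c and Cacna1d was 57.9% ± 1.3.

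The other pore genes were low. Cacna1a, the P/Q-type gene of neurons, was the only one of 7 at 1 TPM or more, with 4.97 and 6.64 TPM. Its leading model Cacna1a-207 is a retained intron of 1153 nt with 71.6% and 64.5% of TPM, and its coding models had 0.30 and 0.28 TPM. Cacna1s, the L-type gene of skeletal muscle, had 0.15 and 0.36 TPM from 16 and 36 reads. Cacna1b (N-type) had 0.11 and 0.12 TPM, Cacna1e (R-type) 0.09 and 0.20, and Nalcn (a sodium leak channel) 0.12 and 0.10. Cacna1f, the retinal L-type gene, had 0 and 2 reads, and the T-type gene Cacna1i had none in either library, where 3 reads are the upper limit that a count of 0 allows for counting error.

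**Figure D3:**
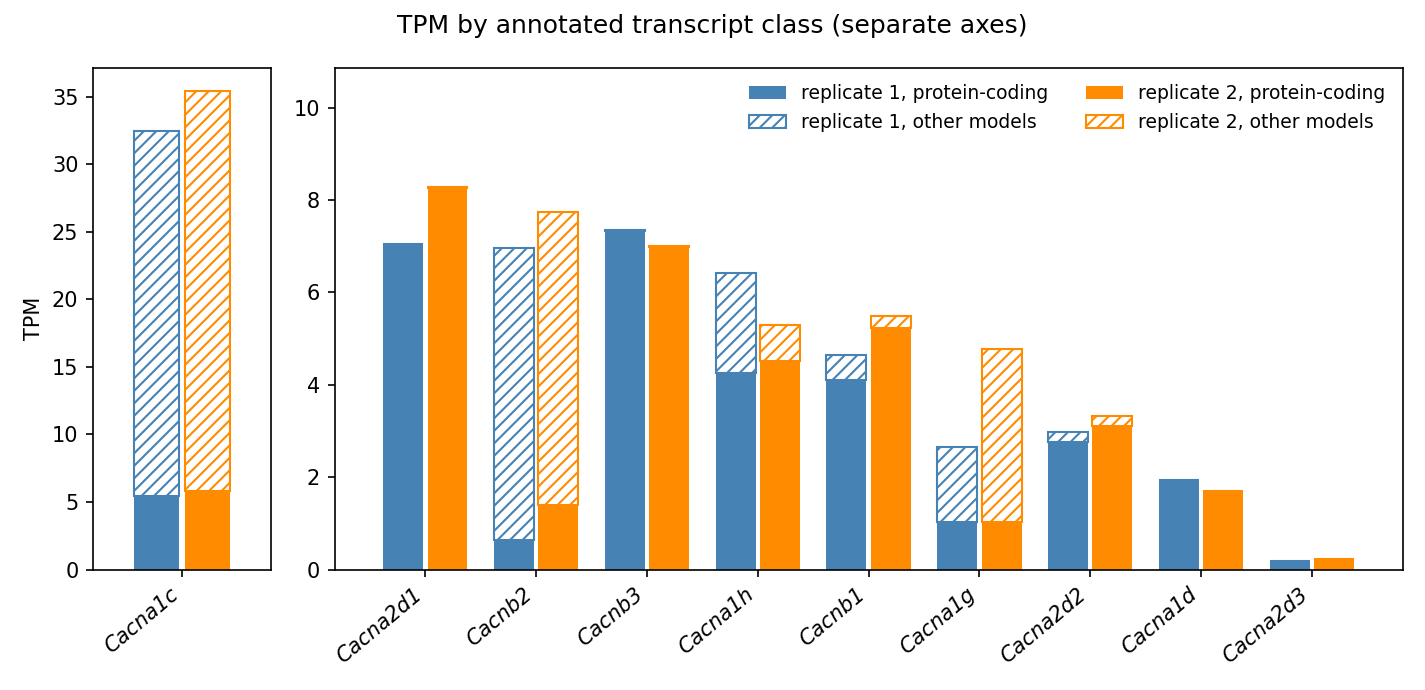
TPM of each member in replicate 1 (left bar) and replicate 2 (right bar), with protein-coding models filled and all other annotated models hatched, Cacna1c on an axis of its own. Most of the bar is hatched in Cacna1c, Cacnb2 and Cacna1g, and almost none of it in Cacna2d1, Cacnb3, Cacna1d and Cacna2d3.

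The β subunits bind the α1 subunit at the α interaction domain, a short stretch between its first and second repeats. The consensus of this domain was searched in the translation of the model with the longest coding sequence of each α1 gene, whatever its level (Cacna1c-204 and Cacna1h-201, for example, were at 0 TPM), and it was found once in each of 7 of the 10 genes and in none of the T-type genes Cacna1g, Cacna1h and Cacna1i. The coding bases are shown for the 2 L-type members, with capitals where they differ. They lie at chr6:118734906-118734959 for Cacna1c, in exon 9 of Cacna1c-207, and at chr14:30142600-30142653 for Cacna1d, both on the minus strand of GRCm38 (GENCODE M21).
Cacna1c alpha interaction domain: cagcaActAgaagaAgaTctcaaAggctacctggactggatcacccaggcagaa
Cacna1d alpha interaction domain: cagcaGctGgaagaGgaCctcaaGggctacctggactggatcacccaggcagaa
The 2 sequences are identical at 49 of 54 bases.

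Of the β genes, Cacnb2 and Cacnb3 were not set apart in total level, and Cacnb1 was 1.45-fold below Cacnb2 (log2 0.54 ± 0.07, Cacnb2 over Cacnb1, SD, n = 2), with intervals that did not overlap in either library. Cacnb2 (ENSMUSG00000057914.11, chr2:14603088-14987908, plus strand), the β subunit that mouse heart needs for embryonic survival, had 6.97 and 7.73 TPM, with bounds of 6.60 to 8.48 and 7.29 to 9.41 TPM. Cacnb3 (ENSMUSG00000003352.9, chr15:98630840-98644529, plus strand), a β subunit best known from brain and smooth muscle, had 7.34 and 7.0 TPM, with bounds of 6.63 to 7.82 and 6.27 to 7.48 TPM. Cacnb3 was the higher of the pair in replicate 1 and Cacnb2 in replicate 2. Cacnb1 (ENSMUSG00000020882.13, chr11:98001508-98023034, minus strand), the β subunit of the skeletal muscle channel, had 4.64 and 5.49 TPM, with bounds of 4.12 to 5.50 and 4.96 to 6.38 TPM. The brain gene Cacnb4 had 0.32 and 0.28 TPM.

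The β genes differed in what these levels were made of. The leading Cacnb2 model, Cacnb2-204, is a retained intron of 3457 nt with 46.6% and 47.8% of TPM and 56.9% and 59.2% of reads. The coding model Cacnb2-203 held 9.13% and 9.94% of TPM, and the coding models together 0.64 and 1.39 TPM. Part of that difference is Cacnb2-216, a coding model of 503 nt that was listed at 0 in replicate 1 and held 8.0% in replicate 2. Cacnb2 was thus the member that reached 1 TPM in both libraries over all models but not over coding models, which left 8 members. By coding models Cacnb3 was the highest β gene, with 54.8% ± 6.2 of the coding β TPM, against 35.3% ± 3.2 for Cacnb1 and 7.6% ± 3.4 for Cacnb2 (SD, n = 2). Over all models the shares were 36.1% ± 2.8, 25.4% ± 1.9 and 36.9% ± 1.1. With all reads of each gene on its longest coding model, they were 44.7% ± 3.5, 19.2% ± 3.2 and 34.1% ± 0.6. All listed models of Cacnb3 are coding but only 5 of 16 of Cacnb2, so the coding shares depend on the annotation. Cacnb2 shares 618, 239 and 111 exon bases with the opposite-strand genes Gm10849, Gm13269 and Gm10848, and its counts are not whole.

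Both transcripts of Cacnb3 are coding, and Cacnb3-202 held 89.2% and 88.8%. They differ in their first coding exon, and the split was nearly equal in the libraries. In Cacnb1, the coding model Cacnb1-202 led with 69.3% and 64.7%. A 155 nt exon of Cacnb1 occurred in models with 78.3% and 78.2% of coding TPM, and a 20 nt exon in those with the other 21.7% and 21.8%. Cacnb1 shares 80 exon bases with Gm11629 on the opposite strand, and its counts are whole.

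Among the α2δ genes, Cacna2d1 (ENSMUSG00000040118.11, chr5:15934691-16374511, plus strand), the main α2δ subunit of striated muscle and a binding site of gabapentin, had 7.05 and 8.28 TPM, with bounds of 6.43 to 7.51 and 7.56 to 8.77 TPM. Cacna2d2 (ENSMUSG00000010066.11, chr9:107399612-107529343, plus strand), which is mutated in the ducky mouse, had 2.97 and 3.33 TPM, with bounds of 2.87 to 3.83 and 3.26 to 4.66 TPM. Cacna2d3 (ENSMUSG00000021991.8, chr14:28904943-29721864, minus strand), a mainly neuronal gene, had 0.19 and 0.23 TPM from 20 and 23 reads. Cacna2d1 exceeded Cacna2d2 by 2.43-fold over all models (log2 1.28 ± 0.05, SD, n = 2) and by 2.60-fold over coding models. It held 69.5% ± 0.6 of the α2δ TPM and 70.8% ± 0.6 of the coding TPM. All listed transcripts of Cacna2d1 and Cacna2d3 are coding, so leaving out other models could change these shares only through Cacna2d2 and Cacna2d4. By posterior means the Cacna2d1 share was 63.1%, and by reads 74.5%. The retinal gene Cacna2d4 had 0 and 1 read.

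All 6 listed transcripts of Cacna2d1 are coding, and 3 of them held its reads. Cacna2d1-206 held 36.9% in replicate 1 and 46.6% in replicate 2, Cacna2d1-202 41.2% and 29.8%, and Cacna2d1-204 21.9% and 23.7%, so the first 2 changed places between the libraries. A 21 nt exon (chr5:16341990-16342010) belonged to models with 58.8% and 70.3% of coding TPM. Cacna2d2-208, a coding model of 5332 nt, led its gene with 77.8% and 70.9%. The gene shares 82 exon bases with Gm17141 on the opposite strand, and its counts are whole. Cacna2d3 has a single listed transcript.

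**Figure D4:**
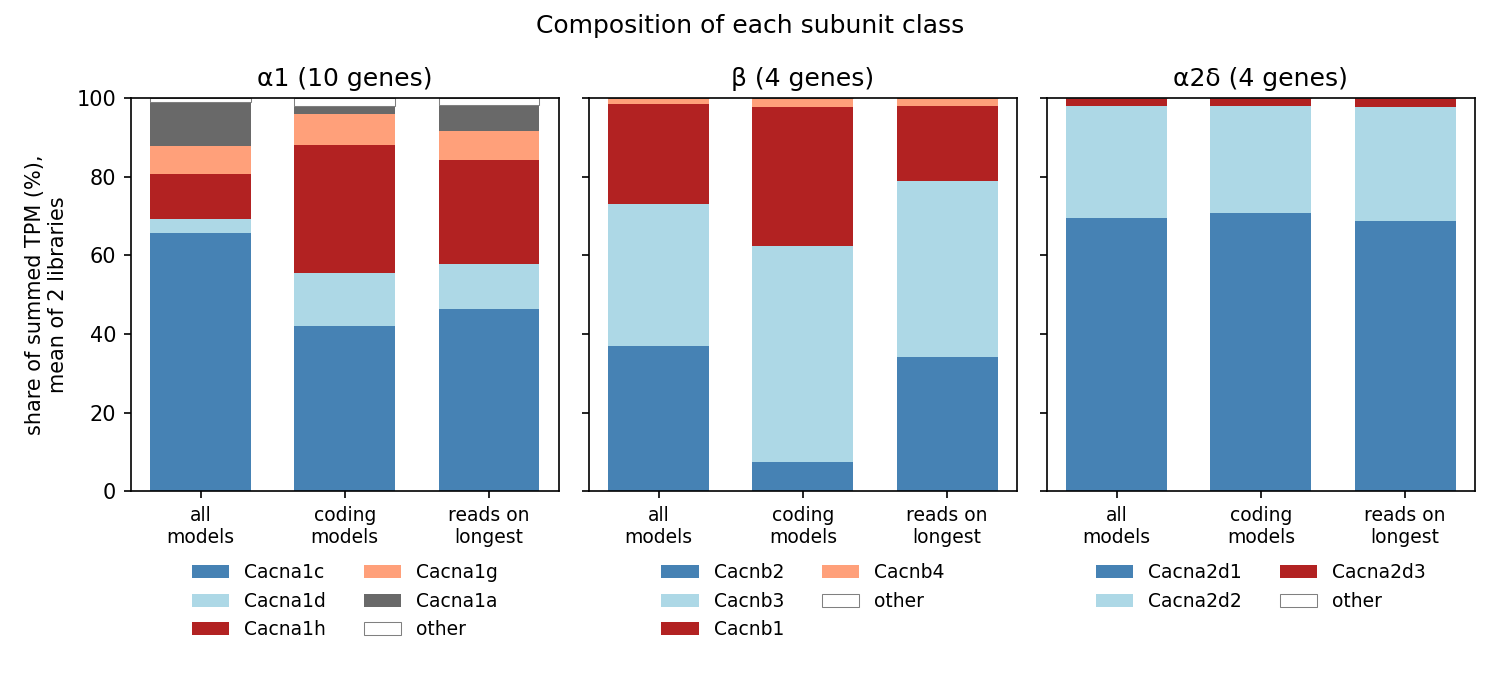
Share of the summed TPM (%, mean of 2 libraries) held by each gene of the α1, β and α2δ classes, with all models, with protein-coding models only, and with all reads of a gene on its longest coding model. Cacna2d1 stays near 70% in each bar, while Cacnb2 goes between 7.6% and 36.9% and Cacna1c between 42.0% and 65.7%.

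The highest auxiliary gene of the family lay outside the 10. Cacng6, a γ subunit gene related to that of the skeletal muscle channel, had 13.1 and 15.0 TPM, from 582 and 605 reads, and both of its listed transcripts are coding. It was 1.83-fold above Cacna2d1 over all models. No other gene of the γ group reached 1 TPM: Cacng4 had 0.40 and 0.46 TPM, Cacng7 0.21 and 0.14, Cacng1 0.12 and 0.22 and Cacng8 0.11 and 0.16. Cacng5 had 5 and 3 reads, Cacng3 5 and 0, and Cacng2 2 in each. In all, 1 of the 10 auxiliary genes outside the members reached 1 TPM.

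Of 20 genes of channel regulators and partners, 17 reached 1 TPM in both libraries. Among the highest was Calm2, which encodes calmodulin, the sensor of calcium-dependent inactivation, with 420 and 516 TPM. Rrad, a small GTPase that inhibits L-type channels through the β subunit, had 210 and 249 TPM, all of it in coding models. Sri (sorcin, a calcium-binding partner of the L-type channel and the ryanodine receptor) had 162 and 197 TPM, of which 39.2 and 40.6 TPM were in coding models. Below 1 TPM were the Stac adaptor genes: Stac with 0.66 and 0.76 TPM, Stac2 with 0.65 and 0.69, and Stac3, an adaptor of the skeletal muscle channel, with 0.59 and 0.83.

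Over the 9 members with more than 1 listed transcript, 6 had the same transcript above 50% of TPM in both libraries, where 71.2% of 9398 such protein-coding genes did. By posterior means, Cacna1h-205 held 43.1% and 49.9% and Cacnb1-202 50.3% and 48.9%, so that neither passed 50% in both. The leading transcript was not coding in 3 of the 9 (Cacna1c, Cacna1g and Cacnb2), against 9.16% of those genes. In the same 3, coding models held under 50% of TPM in both libraries, against 9.14%. Of their reads, coding models held 70.9% ± 0.2 in Cacna1c and 86.4% ± 5.1 in Cacna1g, and 14.0% ± 1.8 in Cacnb2 (SD, n = 2). Of the 93 member transcripts, 40 were at 0 TPM in both libraries.

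The 2 pools of hearts were then compared gene by gene, as scaled counts, replicate 1 over replicate 2. None of the 9 members with a mean count of at least 50 was 1.5-fold apart, where 3.4% of 13763 genes were (1.58% of the genes higher and 1.82% lower in replicate 1). Member log2 ratios ran from −0.29 to 0.32, inside the 5th to 95th percentile of all tested genes (−0.32 to 0.34). The 95% counting interval left out 0 for 3 members, where it did so for 36.4% of all tested genes: Cacna1d at 0.32, Cacnb3 at 0.21 and Cacnb1 at −0.29. For Cacna1c the log2 ratio was 0.05, which turned to −0.13 on the TPM scale. Cacnb2 likewise had 0.01 in scaled counts and −0.15 in TPM. Both TPM ratios lay near the median of all tested genes on that scale, −0.15. In the ratio of TPM, Cacna1g was the only member past 1.5-fold, at −0.84, against −0.01 in scaled counts. With spike-in scaling, every member was lower in replicate 1, by log2 −0.96 to −1.58, beside a median of −1.29 over all tested genes.

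**Figure D5:**
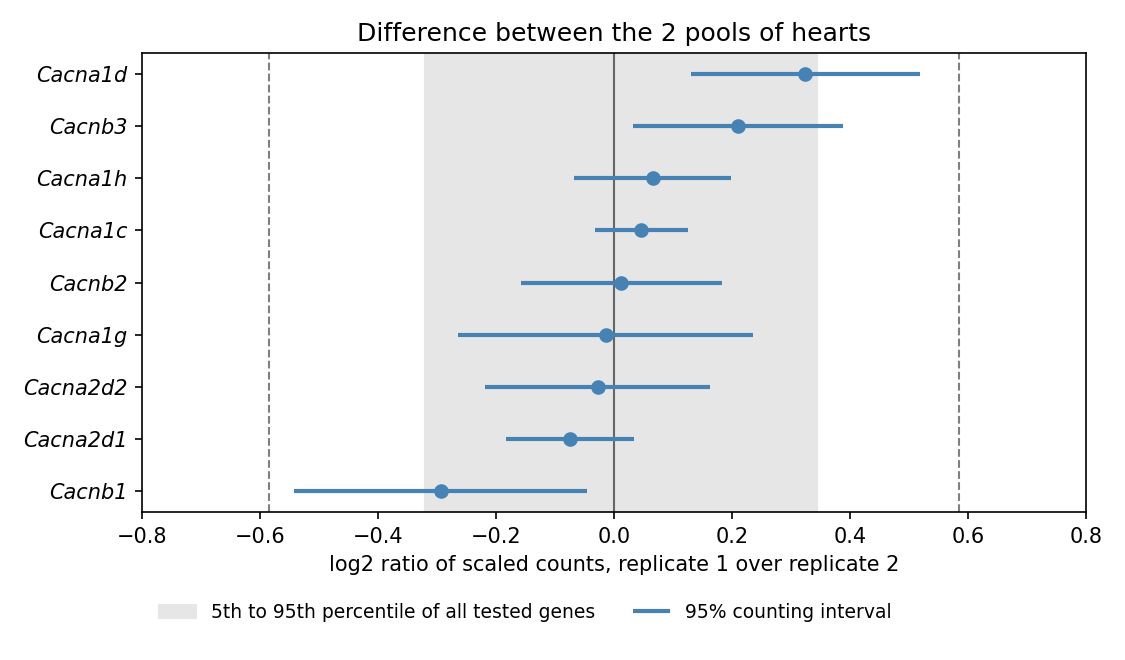
Log2 ratio of scaled counts, replicate 1 over replicate 2, for the 9 members with enough reads, with bars for the 95% counting interval, grey for the 5th to 95th percentile of all tested genes and dashed lines at 1.5-fold. All points lie between −0.29 (Cacnb1) and 0.32 (Cacna1d), and the bars of Cacna1d, Cacnb3 and Cacnb1 leave out 0.

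Markers of other tissues moved between the pools beside these ratios. The 6 skeletal muscle markers summed to 13.3 TPM in replicate 1 and 23.0 TPM in replicate 2, most of it Mylpf at 11.4 and 19.3 TPM. Myog had 1.15 and 2.90 TPM and Ryr1 0.08 and 0.11, while Myf6 went the other way, with 10 reads in replicate 1 and 2 in replicate 2. Cacnb1 was lower in replicate 1, as was Cacna1s, with 16 and 36 reads. Neuron markers summed to 9.23 and 11.4 TPM. Their part in the ratios of the members was not tested.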

How the data were processed

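Total RNA-seq of 2 embryonic heart libraries was used. Per the file headers, the authors deposited for each gene and transcript an expected count, which is an estimate of its reads with no normalization. The authors also deposited TPM and FPKM, per the file headers corrected for length and depth, with posterior means and with credibility bounds of unstated level. A further column, per the file headers, gives each transcript as a percent of the TPM of its gene. The file descriptions state that the values came from transcriptome alignments on mm10 with annotation M4. Aligner, quantifier, their versions and any use of strand are not given in the sources used. Reads of overlapping or shared features are divided by the estimate.

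Names, transcript classes, exons and sequences came from GENCODE M21 on the same assembly, GRCm38. All 93 member transcripts matched, but the listed lengths of some models of Cacna1d, Cacnb3 and Cacna2d1 differ between annotation versions. Expected counts were rounded to whole numbers for scaling. Scaling used edgeR 4.0.16 (TMM) in R 4.3.3, with 0.5 added before log2 and a mean count of at least 50, and DESeq2 1.42.0 size factors as an alternative. The spike-ins were left out. Tables and figures were made in Python 3.11.15 with pandas 2.3.3, numpy 2.4.6 and matplotlib 3.10.9. Coding TPM is the sum over transcripts of class protein coding. A pair of genes was set apart where their deposited intervals did not overlap in either library. The 95% counting interval of a ratio reflects the number of reads, which are not independent molecules, and no other error. With 1 group of 2 libraries no p-value was computed. The scaling and ratio steps were tested on simulated data.

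The members and lists were chosen with earlier results of these data known. Named are all members, every other α1 and auxiliary gene, the 4 highest regulators with those below 1 TPM, and transcripts that lead or hold 20% in both libraries; 1 gene under this rule is not reported here. Other transcripts and the marker genes named were chosen after their values were seen. The DNSNS site of α2δ proteins and protein identities were not analysed here.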

Additional observations from a re-analysis of the deposited data

How the results depend on the processing

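Detection of 9 members held with a minimum of 0.5 TPM, posterior means, FPKM, the lower bound, without spike-ins and without either replicate. It was 8 with coding models and 5 at a minimum of 5 TPM. The share of Cacna1c and Cacna1d in α1 TPM, 69.3%, was 65.0% by posterior means, 55.6% with coding models, 67.4% by reads, 57.9% with all reads on the longest coding model (an alternative chosen after seeing the data), and 68.1% to 70.5% without either replicate. The Cacnb2 share of β TPM, 36.9%, was 7.59%, 39.5% and 34.1% with coding models, by reads and on the longest model. The Cacna2d1 share of α2δ TPM, 69.5%, was 63.1% by posterior means, 70.8% with coding models, 74.5% by reads and 68.7% on the longest model. The count of members 1.5-fold apart, 0, became 1 (Cacna1d) at the lower fold tried, 1 (Cacna1g) for TPM and 9 with spike-in scaling. Neighbours set apart numbered 3 to 4 without either replicate. By construction, the coding setting leaves out the reads on other models, and the longest model changes the length that divides them; for the other settings the cause was not tested. Depth limits Cacna2d3, with 20 and 23 reads, and short models with few reads. No paired analysis was possible because there is 1 group.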
